A study of Mus musculus with 9 samples.

Results

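The genes described here are those that the Cugbp1 siRNA and the Mbnl1 siRNA moved in the same direction in C2C12 mouse myoblasts, relative to a control siRNA. The 6 arrays of cells with either knockdown were compared with the 3 arrays of cells with the control siRNA, with time as a block. A gene was counted when this pooled test called it (limma, adjusted p under 0.05) and when its level lay on the same side of control at every time under both siRNAs. Of 9864 genes tested, 94 met the rule, of which 53 were higher and 41 were lower after knockdown. Each group had 1 array per time: control siRNA, Cugbp1 siRNA or Mbnl1 siRNA, each with RNA taken at 0, 2.5 and 5 h after actinomycin D at 5 ug/ml was added to block transcription. All cells had received an siRNA and grew in DMEM with 10% serum. The labels give neither the siRNA sequences nor how many were used per target, and no separate cultures are named for the arrays, so p-values measure only the spread between these arrays, which may be technical. Both knockdowns were compared with the same 3 control arrays, so a control array that is high or low moves both differences together. The series asks how the 2 proteins affect mRNA decay.

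Cugbp1 is the older name of Celf1, an RNA-binding protein that recognises GU-rich elements and recruits deadenylation to the mRNAs that carry them. Mbnl1, a zinc finger protein of the muscleblind family, binds short pyrimidine-GC-pyrimidine motifs and acts in splicing, mRNA localisation and mRNA stability. In muscle the proteins are known for opposing roles in developmental splicing, and in myotonic dystrophy Mbnl1 is sequestered on expanded repeats while Celf1 activity is raised. C2C12 is an immortal line of mouse muscle precursors that can be driven to fuse into myotubes.

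To show promoter sequence of genes that moved together, 5 windows are printed, each the 250 bases before the transcription start from RefSeq on GRCm38.p6. They are the members with the largest shared differences in each direction whose window held 1 of 8 searched motifs, and Ddit3, a stress transcription factor. Capitals mark motif matches, and each line reads 5′ to 3′ on the strand of the gene. The windows lie at chr12:30911613-30911862 (minus strand) for Acp1, chr2:164356508-164356757 (minus) for Slpi, chr10:127290543-127290792 (plus) for Ddit3, chr7:118491976-118492225 (minus) for Itpripl2 and chr5:129008573-129008822 (minus) for Stx2, which has 2 listed windows, of which the first is shown.
Acp1: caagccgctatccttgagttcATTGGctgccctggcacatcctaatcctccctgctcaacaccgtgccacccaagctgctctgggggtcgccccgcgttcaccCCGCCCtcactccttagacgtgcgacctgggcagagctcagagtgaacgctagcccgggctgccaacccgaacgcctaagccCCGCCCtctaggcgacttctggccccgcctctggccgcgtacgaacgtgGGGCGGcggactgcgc
Slpi: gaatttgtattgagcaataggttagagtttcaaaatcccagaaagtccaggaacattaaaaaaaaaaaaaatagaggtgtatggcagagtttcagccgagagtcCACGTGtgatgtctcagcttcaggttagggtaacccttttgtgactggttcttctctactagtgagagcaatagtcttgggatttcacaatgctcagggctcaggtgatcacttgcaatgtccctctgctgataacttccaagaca
Ddit3: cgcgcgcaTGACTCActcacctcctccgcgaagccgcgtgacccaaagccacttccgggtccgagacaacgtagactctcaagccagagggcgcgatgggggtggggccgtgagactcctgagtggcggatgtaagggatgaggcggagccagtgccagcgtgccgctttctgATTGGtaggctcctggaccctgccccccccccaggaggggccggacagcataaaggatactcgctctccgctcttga
Itpripl2: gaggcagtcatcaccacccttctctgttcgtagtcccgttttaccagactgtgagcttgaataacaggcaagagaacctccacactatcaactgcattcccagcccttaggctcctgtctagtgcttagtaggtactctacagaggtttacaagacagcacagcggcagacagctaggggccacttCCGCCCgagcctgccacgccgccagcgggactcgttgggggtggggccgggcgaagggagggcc
Stx2: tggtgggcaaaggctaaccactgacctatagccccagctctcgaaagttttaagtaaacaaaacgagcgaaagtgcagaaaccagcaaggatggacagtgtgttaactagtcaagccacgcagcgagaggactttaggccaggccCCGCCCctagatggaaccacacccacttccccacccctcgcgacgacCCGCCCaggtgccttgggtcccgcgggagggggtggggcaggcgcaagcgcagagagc
The capitals in Acp1, a low molecular weight phosphatase, mark a CCAAT box (CCAAT, here on the opposite strand) and 3 GC boxes (GGGCGG). In Slpi, a secreted protease inhibitor, they mark an E-box (CACGTG), and in Ddit3 an AP-1 site (TGANTCA) and a CCAAT box. Itpripl2 and Stx2, both lower after knockdown, hold GC boxes. Of the 94 genes, 79 have at least 1 window in the table, against 7987 of all genes tested, which have 10197 windows. A TATA box (TATAAA) was found in 11.5% of the 61 windows of higher genes, in 7.84% of the 51 windows of lower genes and in 6.19% of all windows. For the CCAAT box the shares were 31.1%, 21.6% and 34.9%, and for the GC box 52.5%, 66.7% and 60.3%. The E-box was in 11.5% of windows of higher genes, 3.92% of lower and 8.65% of all, and the AP-1 site in 3.28%, 9.8% and 4.32%. A core of the antioxidant response element (TGACNNNGC) was in 9.84% of windows of higher genes, 5.88% of lower and 11.7% of all. A core of the amino acid response element (TGATGNAAN) was in 4.92%, 1.96% and 1.95%, and the cAMP response element (TGACGTCA) in 1.64%, 0% and 2.61%. Both strands were searched and overlapping matches of different motifs were counted separately. These matches are letters in a window and no evidence of binding.

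The values are RMA intensities on a log2 scale, so a difference of 1 is a doubling and each level is relative to the other transcripts of the array. Array medians lay between 104.9 and 113.0 on the linear scale, and arrays correlated at 0.980 to 0.995 across probe sets. Of 8 myoblast markers 7 passed the intensity filter, with Msc the exception. Marker means here are over all markers of a list, whether they passed or not. The mean log2 level of the 8 was 10.91 to 11.14 on control arrays, 10.89 to 11.11 with Cugbp1 siRNA and 10.76 to 10.94 with Mbnl1 siRNA. Of 20 macrophage and leukocyte markers 2 passed the filter. Cd68 lay at 8.37 to 9.83 and stood 0.24 ± 0.04 (SE) above control with Cugbp1 siRNA (adjusted p = 0.00383) and 1.15 ± 0.04 with Mbnl1 siRNA (adjusted p = 8.52e-07), while Cd14 stood at -0.08 and -0.13 and Ptprc, the pan-leukocyte marker, lay at 5.57 to 5.72. The 38 epithelial and keratinocyte markers, of which 12 passed, averaged 6.75 to 6.86 on control arrays, 6.77 to 6.84 with Cugbp1 siRNA and 7.11 to 7.22 with Mbnl1 siRNA. Of the 12, 8 were called higher and 1 lower with Mbnl1 siRNA, and 1 higher and 3 lower with Cugbp1 siRNA. Of all 9864 genes tested, 2372 were called higher and 3054 lower with Mbnl1 siRNA, and 1039 higher and 855 lower with Cugbp1 siRNA. Klk6 stood at -0.16 with Cugbp1 siRNA and 3.59 with Mbnl1 siRNA, Krt8 at 0.08 and 2.69, and Cdh1 at -0.09 and 1.26. Of the 12, 2 lay above control at every time under both siRNAs and 4 below, against 13.6% and 13.4% of all genes. The 4 were Krt14 (-0.15 and -0.11), Krt19 (-0.10 and -0.10), Pkp1 (-0.08 and -0.12) and Pkp2 (-0.25 and -0.21). Epcam and Krt5 did not pass the filter (5.55 to 6.09 and 6.30 to 6.73). The adipocyte markers (4 of 13 passed) averaged 6.90 to 6.93, 6.95 to 6.97 and 7.04 to 7.08, the osteoblast and chondrocyte markers (4 of 13) 6.92 to 6.93, 6.87 to 6.94 and 6.88 to 6.98, and the fibroblast markers (10 of 18) 8.74 to 8.79, 8.78 to 8.79 and 8.60 to 8.66, in the order control, Cugbp1 and Mbnl1 siRNA. Of the 10 fibroblast markers that passed, 0 lay above and 4 below control at every time under both siRNAs. The part of these marker shifts in the results was not tested. In cultured cells pooled for RNA, fewer cells with a transcript and less of it per cell cannot be told apart.

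Celf1 was called lower with each siRNA, and Mbnl1 with its own siRNA and not with the other. The log2 level of Celf1 was 11.66, 11.74 and 11.73 at 0, 2.5 and 5 h on control arrays, 9.96, 9.57 and 9.52 with Cugbp1 siRNA and 11.19, 11.13 and 11.03 with Mbnl1 siRNA. With the Cugbp1 siRNA it fell by 2.03 ± 0.09 (SE, adjusted p = 3.01e-05 in the fit with siRNA as 3 levels), and with the Mbnl1 siRNA by 0.59 ± 0.09 (adjusted p = 0.000931). Because the arms differed by 1.43, the pooled test did not call Celf1 (-1.31 ± 0.48, adjusted p = 0.236). Mbnl1 was at 12.43, 12.50 and 12.44 on control arrays, 12.33, 12.42 and 12.43 with Cugbp1 siRNA and 10.24, 10.05 and 9.79 with Mbnl1 siRNA. It fell by 2.43 ± 0.09 with its own siRNA (adjusted p = 1.63e-06) and stood at -0.07 ± 0.09 with the Cugbp1 siRNA (adjusted p = 0.67). Celf1 was therefore below control on all 6 knockdown arrays behind the shared differences, and its part in them was not tested. Among the relatives, Mbnl3 stood at -0.16 with Cugbp1 siRNA and -0.37 with Mbnl1 siRNA, Mbnl2 at -0.01 and 0.13 and Celf2 at 0.02 and -0.51. Myod1, the myogenic factor, stood at 0.11 and -0.58, and Actb, beta-actin, at -0.01 with each. Myog and Gapdh were not tested.

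The shared response was small in most genes and large in a few. The 94 genes are 0.953% of those tested, with 0.537% called higher and 0.416% called lower. Higher genes made up 56.4% of the calls, and 69.8% (37 against 16) when arrays were set to equal medians of ribosomal protein genes. The median pooled difference was 0.49 in the higher genes (0.23 to 1.54) and -0.39 in the lower ones (-0.78 to -0.24), against -0.01 over all genes. Of 3974 probe sets without a single gene symbol, tested apart, 4 (0.101%) were called. Pooled differences reached 2-fold in 5 genes, all higher: Gpnmb, H2bc4, Ppargc1a, Il1f9 and Slpi. Of the higher genes 35, and of the lower genes 36, differed by less than 1.5-fold. The 6 knockdown levels did not overlap the 3 control levels, whatever the time, in 69 of the 94 (7.39% of all genes), a separation that the choice of genes favours. In the other 25, such as Ddit4 and Rel, the levels overlapped across times and separated at matched times. Each siRNA's own difference, from a fit with siRNA as 3 levels, is given beside the pooled one as a description, since the same arrays chose the genes. That fit called 19.2% of all genes with Cugbp1 siRNA and 55% with Mbnl1 siRNA. The groups by function below were drawn from the called genes after their directions were known, so a group of 1 direction is a way of ordering them and no result.

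The number of calls depended strongly on single arrays. By limma, 29 genes were called without the Cugbp1 siRNA array of 0 h, 5 without that of 2.5 h and 45 without that of 5 h. Without the Mbnl1 siRNA array of 0 h 9 were called, without that of 2.5 h 0 (1333 at an unadjusted p under 0.05), and without that of 5 h 38. Leaving out any of the 3 control arrays gave 0 calls, with 946, 824 and 857 genes at an unadjusted p under 0.05 for the arrays of 0, 2.5 and 5 h. With time as a block, a time without its control array adds nothing to the pooled difference. Each of these 3 fits thus measured it on the remaining times alone. Across the fits without 1 array, the differences of the 94 were 0.83 to 1.17 times the value on all arrays. Their direction is fixed by the rule that chose them. The pooled test counts a difference between the siRNAs as spread, so it favours genes with effects of like size: with siRNA as 3 levels, the mean of both knockdowns against control called 1782 genes higher and 2092 lower.

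**Figure D1:**
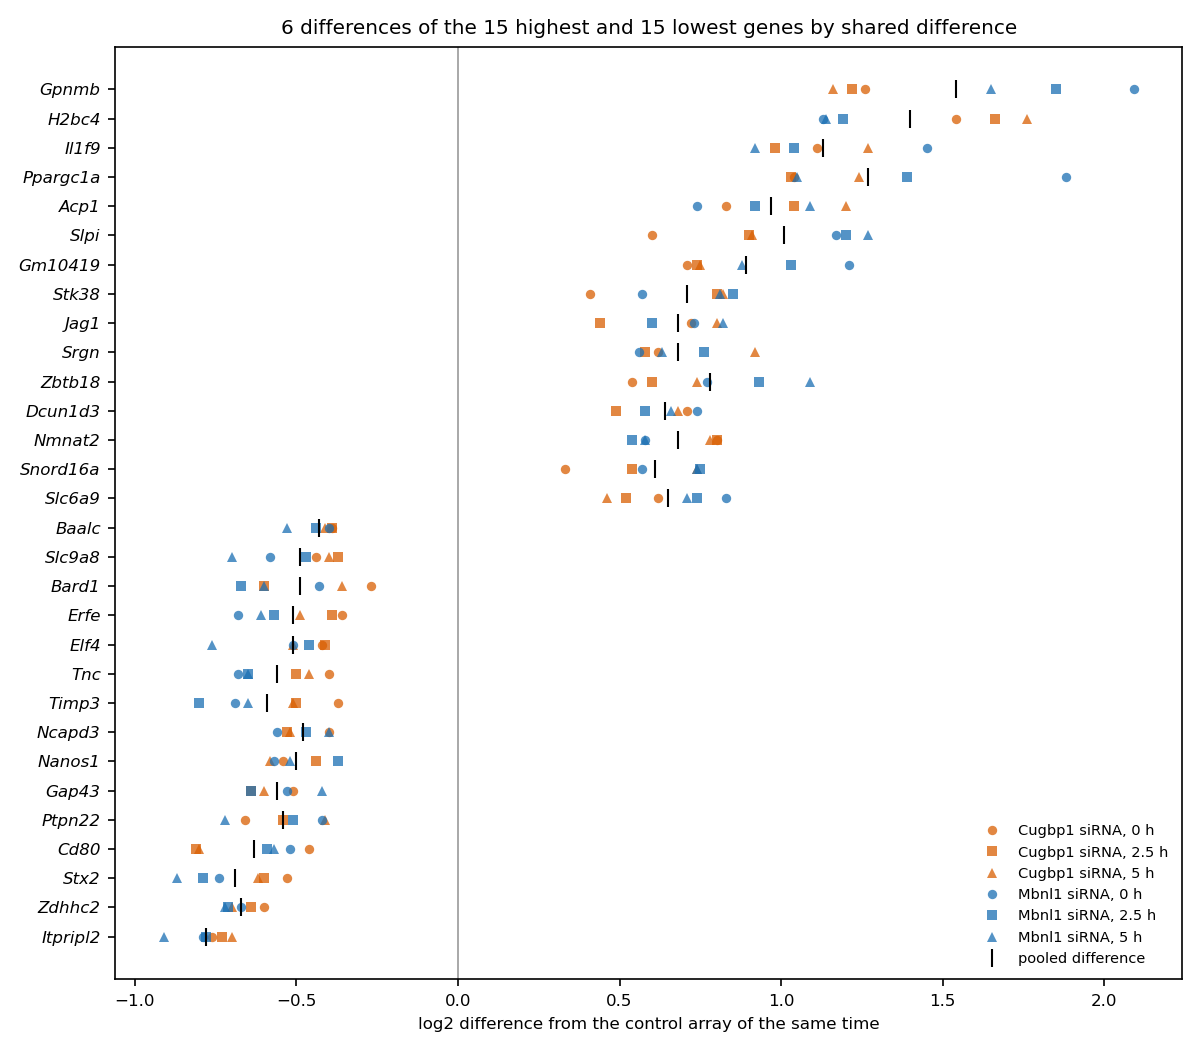
Log2 difference of each knockdown array from the control array of the same time, for the 15 higher and 15 lower genes with the largest shared difference (the smaller of the mean differences under each siRNA). Colours give the siRNA, symbols the time and bars the pooled difference. All 6 differences of each gene lie on 1 side of 0, from -0.91 (Itpripl2) to 2.09 (Gpnmb).

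Lysosomal and glycosylation genes held the largest shared rise. Gpnmb encodes a transmembrane glycoprotein of lysosomes and melanosomes. Its log2 level was 8.58, 8.98 and 9.08 at 0, 2.5 and 5 h with control siRNA, 9.84, 10.20 and 10.24 with Cugbp1 siRNA, and 10.67, 10.83 and 10.72 with Mbnl1 siRNA. No knockdown array overlapped a control array, and the Mbnl1 siRNA arrays were the highest. The pooled difference was 1.54 ± 0.22 (SE, 6 arrays against 3), a 2.91-fold rise (adjusted p = 0.0364), made of 1.21 ± 0.08 with Cugbp1 siRNA and 1.86 ± 0.08 with Mbnl1 siRNA. Gnptg, a subunit of the enzyme that tags lysosomal hydrolases with mannose phosphate, rose by 0.52 ± 0.05 (adjusted p = 0.0157), from 9.52, 9.78 and 9.92 on control arrays to 9.99, 10.31 and 10.55 with Cugbp1 siRNA and 10.04, 10.26 and 10.41 with Mbnl1 siRNA. The siRNAs gave nearly the same level of Gnptg at each time. Alg2, a mannosyltransferase of N-glycan assembly, rose by 0.52, B4galt1, a galactosyltransferase of the Golgi, by 0.45, Laptm4b, a lysosomal membrane protein, by 0.33, and Gbe1, the glycogen branching enzyme, by 0.29. The adjusted p of these 6 genes ran from 0.0157 to 0.0364.

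Of the 46 genes tested from the list of lysosome and vacuolar ATPase genes, Gpnmb was the only one called. Without a test, 21 of the 46 lay above control on all 6 pairs of arrays and 1 lay below, where 13.6% and 13.4% of all genes did so. The median pooled difference of the list was 0.23 (0.05 with Cugbp1 siRNA and 0.32 with Mbnl1 siRNA), against -0.01 over all genes. Gla, the lysosomal alpha-galactosidase, stood 0.36 above control with Cugbp1 siRNA and 0.90 with Mbnl1 siRNA (pooled adjusted p = 0.159). Lgmn, the lysosomal asparaginyl protease, stood 0.43 and 0.29 above it (adjusted p = 0.0671).

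Of the higher genes, 4 encode secreted or innate immune proteins. Il1f9, an epithelial cytokine of the interleukin family, was at 7.49, 7.76 and 7.71 on control arrays, 8.60, 8.74 and 8.98 with Cugbp1 siRNA and 8.94, 8.80 and 8.63 with Mbnl1 siRNA. The order of the siRNAs turned between 0 and 5 h, and their means were alike: 1.12 ± 0.12 above control with Cugbp1 siRNA and 1.14 ± 0.12 with Mbnl1 siRNA (pooled 1.13 ± 0.11, 2.19-fold, adjusted p = 0.0157). Slpi, the protease inhibitor whose promoter is shown above, was at 7.41, 7.63 and 7.71 on control arrays, 8.01, 8.53 and 8.62 with Cugbp1 siRNA and 8.59, 8.82 and 8.98 with Mbnl1 siRNA. It rose by 1.01 ± 0.15 (adjusted p = 0.0368), and more with Mbnl1 siRNA than with Cugbp1 siRNA by 0.41 ± 0.06 (adjusted p = 0.00101). Srgn, the proteoglycan core protein of secretory granules, lay below the intensity filter on average with control siRNA (6.86, 6.99 and 7.04) and above it after knockdown (7.48, 7.57 and 7.96 with Cugbp1 siRNA, 7.42, 7.75 and 7.67 with Mbnl1 siRNA). Its pooled difference was 0.68 ± 0.08 (adjusted p = 0.0222). Ly96, the co-receptor of the endotoxin receptor Tlr4, rose by 0.38 ± 0.04 (adjusted p = 0.0222).

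Of 19 tested genes of the list of cytokines, chemokines and innate immune effectors, 0 were called either way, 2 lay above and 5 below control on all pairs, and the median pooled difference was -0.09. Over all genes 0.953% were called, 13.6% lay above and 13.4% below. Of 19 tested genes of the interferon and double-stranded RNA response, 0 were called, 3 lay above control on all pairs and 1 below, with a median of -0.02. Eif2ak2, the kinase that double-stranded RNA activates, differed by -0.16 ± 0.08 (adjusted p = 0.327). Irgm1, an interferon-induced GTPase, stood 0.14 above control with Cugbp1 siRNA and 0.67 with Mbnl1 siRNA (pooled adjusted p = 0.3).

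**Figure D2:**
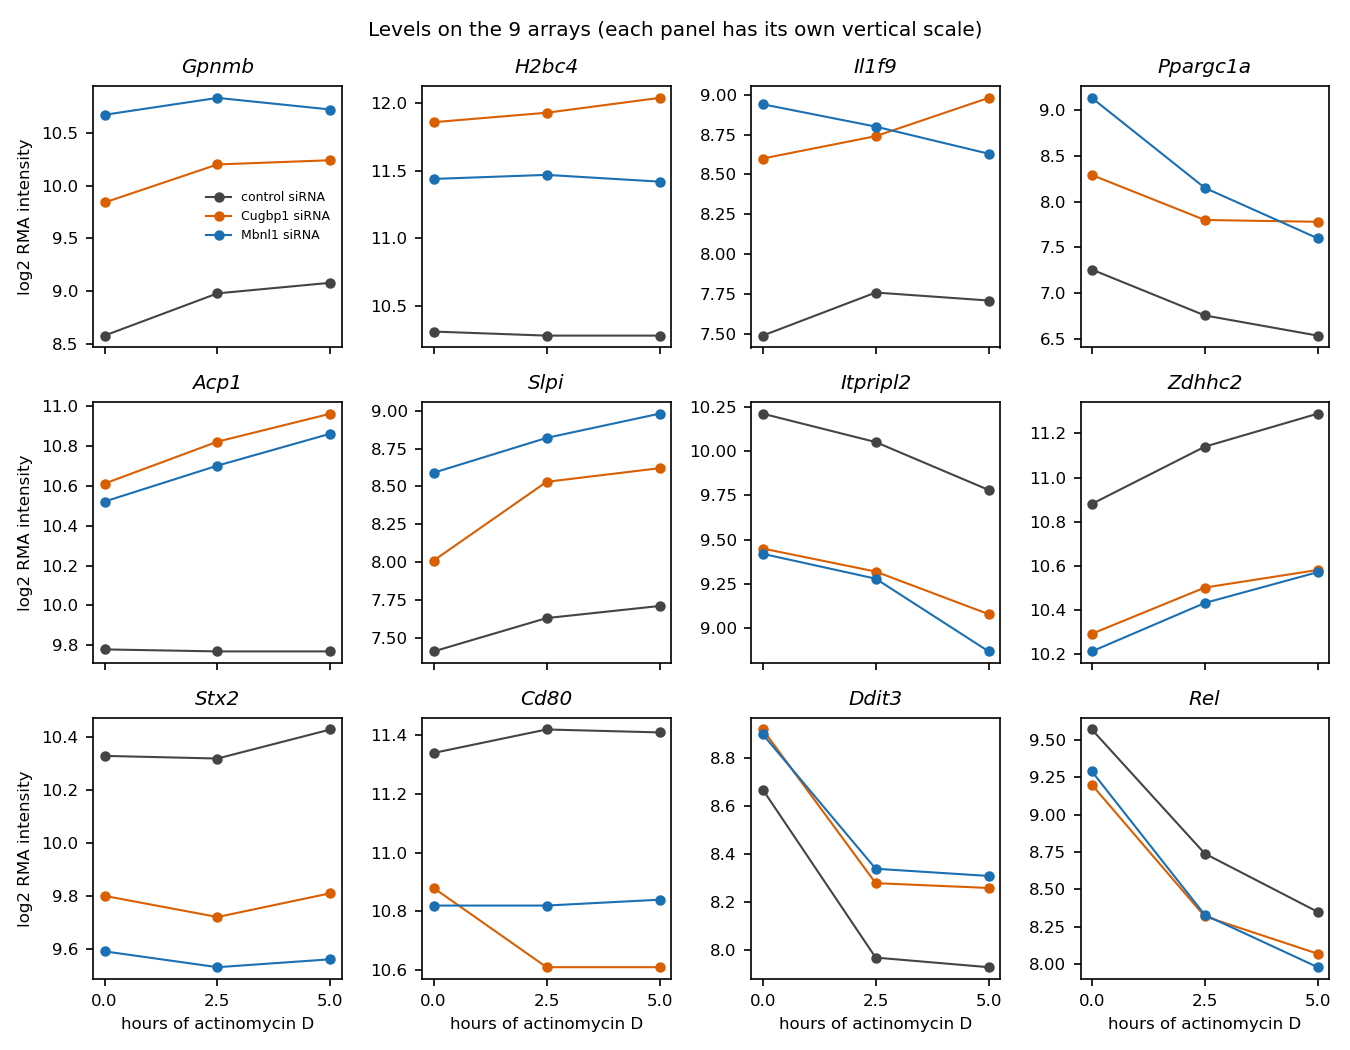
Log2 RMA intensity against hours of actinomycin D for 12 genes, with 1 point per array and a line per siRNA. In each panel both knockdown lines lie on the same side of the control line at all 3 times, above it from Gpnmb to Slpi and in Ddit3, and below it in Itpripl2, Zdhhc2, Stx2, Cd80 and Rel.

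Of the 94 genes, 6 placed here encode regulators of transcription and chromatin, 5 of them higher and 1 lower. H2bc4, a replication-dependent histone H2B gene, was at 10.31, 10.28 and 10.28 on control arrays, 11.86, 11.93 and 12.04 with Cugbp1 siRNA and 11.44, 11.47 and 11.42 with Mbnl1 siRNA. The pooled difference was 1.40 ± 0.17 (2.64-fold, adjusted p = 0.0241), and the rise was smaller with Mbnl1 siRNA by 0.50 ± 0.05 (adjusted p = 9.7e-05). Histone H2B genes are near-identical copies, so the array may read several of them as H2bc4. Ppargc1a, the coactivator of mitochondrial biogenesis, had a control mean below the filter (7.26, 6.76 and 6.54) and was at 8.29, 7.80 and 7.78 with Cugbp1 siRNA and 9.13, 8.15 and 7.60 with Mbnl1 siRNA. It rose by 1.27 ± 0.19 (2.41-fold, adjusted p = 0.0364), and its Mbnl1 siRNA array of 0 h was the highest of the 9. Zbtb18, a zinc finger repressor active in muscle and brain development, was at 7.80, 7.54 and 7.50 on control arrays, 8.34, 8.14 and 8.24 with Cugbp1 siRNA and 8.57, 8.47 and 8.59 with Mbnl1 siRNA, a rise of 0.78 ± 0.11 (adjusted p = 0.0364). Etv1, an ETS factor, rose by 0.39, and Aff4, the scaffold of the super elongation complex, by 0.33. Kat2b, an acetyltransferase that acts with Myod1, fell by 0.42 ± 0.06 (adjusted p = 0.0364).

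Of the 20 histone genes tested, H2bc4 was the only one called, 2 lay above and 3 below control on all pairs, and the median was -0.13. The shares of all genes were 0.953% called, 13.6% above and 13.4% below. H2bc3, another H2B gene, stood at -0.05 with Cugbp1 siRNA and -0.35 with Mbnl1 siRNA (pooled adjusted p = 0.513). H1f2, a linker histone, stood 0.76 and 0.57 above control with Cugbp1 and Mbnl1 siRNA (pooled adjusted p = 0.0514), while H4c4 stood at -0.96 and -0.29 (adjusted p = 0.35). Slbp, which binds the histone mRNA stem-loop and is needed for its processing, stood at -0.91 ± 0.05 with Cugbp1 siRNA and -0.44 ± 0.05 with Mbnl1 siRNA (pooled adjusted p = 0.108). Of 73 tested genes of oxidative phosphorylation, targets of the pathway in which Ppargc1a acts, 0 were called. Of these, 22 lay above control on all pairs and 1 below, with a median of 0.07, and Uqcrc1, a core subunit of complex III, stood at 0.16 and 0.18.

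Of the higher genes, 7 act in amino acid supply or cell stress. Ddit3, a transcription factor induced by the integrated stress response, was at 8.67, 7.97 and 7.93 on control arrays, 8.92, 8.28 and 8.26 with Cugbp1 siRNA and 8.90, 8.34 and 8.31 with Mbnl1 siRNA. The arms differed from control by 0.30 ± 0.04 and 0.33 ± 0.04 (pooled 0.31, adjusted p = 0.0334), and all of them fell under actinomycin D. Ddit4, an inhibitor of mTORC1, was at 9.86, 7.79 and 8.09 on control arrays, 10.29, 8.32 and 8.52 with Cugbp1 siRNA and 10.34, 8.50 and 8.48 with Mbnl1 siRNA, a rise of 0.49 ± 0.06 (adjusted p = 0.0252). Gadd45a, a growth arrest gene, rose by 0.51 ± 0.08 (adjusted p = 0.0449), from 8.78, 7.77 and 7.48 to 9.11, 8.18 and 8.09 with Cugbp1 siRNA and 9.46, 8.27 and 8.03 with Mbnl1 siRNA. Levels of these 3 genes overlapped between groups across times and were separate at each time. Slc6a9, a glycine transporter, was at 10.88, 11.02 and 11.01 on control arrays, 11.50, 11.54 and 11.47 with Cugbp1 siRNA and 11.72, 11.76 and 11.72 with Mbnl1 siRNA. It rose by 0.65 ± 0.09 (adjusted p = 0.0309), more with Mbnl1 siRNA by 0.23 ± 0.04 (adjusted p = 0.0018). Slc1a4, a transporter of alanine and serine, rose by 0.45, Psph, the last enzyme of serine synthesis, by 0.34, and Aldh1l2, a mitochondrial enzyme of folate metabolism, by 0.45.

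On the list of unfolded protein and integrated stress response genes, 1 of 38 tested was called (Ddit3), 14 lay above control on all pairs and 1 below, and the median was 0.07. For comparison, 0.953% of all genes were called, 13.6% lay above and 13.4% below. Asns, asparagine synthetase, stood 0.26 and 0.35 above control (adjusted p = 0.0542), and Sesn2, a leucine sensor, 0.37 and 0.26 (adjusted p = 0.0991). Chac1, a glutathione-degrading enzyme, stood at 0.18 and 0.59 (adjusted p = 0.292). Of the 34 tested genes of the Nrf2 antioxidant response, 17 lay above control on all pairs and 0 below, with a median of 0.12, and 1 was called. That gene was Blvrb, a biliverdin reductase of haem breakdown, which rose by 0.40 ± 0.05 (adjusted p = 0.0241), from 11.07, 11.42 and 11.60 to 11.58, 11.84 and 11.95 with Cugbp1 siRNA and 11.52, 11.75 and 11.91 with Mbnl1 siRNA. Hmox1, the haem oxygenase, was just outside the threshold at 1.27 ± 0.09 with Cugbp1 siRNA and 0.81 ± 0.09 with Mbnl1 siRNA (pooled 1.04, adjusted p = 0.0502). Abcb6, a porphyrin transporter, rose by 0.49 ± 0.04 (adjusted p = 0.0157), while Erfe, a hormone of iron metabolism, fell by 0.51 ± 0.08 (adjusted p = 0.0462).

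Of the higher genes, 8 encode signalling ligands, receptors or their regulators. Jag1, a Notch ligand, was at 8.09, 7.78 and 7.45 on control arrays, 8.82, 8.22 and 8.24 with Cugbp1 siRNA and 8.82, 8.38 and 8.27 with Mbnl1 siRNA, a rise of 0.68 ± 0.07 (adjusted p = 0.0157). Dtx4, a ubiquitin ligase of the Notch pathway, rose by 0.36 ± 0.06 (adjusted p = 0.0462). Of the 52 tested genes of the Notch, Wnt, TGF-beta and BMP list, Jag1 was the only one called, 6 lay above and 7 below control on all pairs, and the median was -0.03. Across all genes the shares were 0.953% called, 13.6% above and 13.4% below. Stk38, a kinase of the Hippo-related family, was at 8.90, 8.71 and 8.62 on control arrays, 9.31, 9.51 and 9.44 with Cugbp1 siRNA and 9.47, 9.55 and 9.42 with Mbnl1 siRNA, a rise of 0.71 ± 0.08 (adjusted p = 0.019). Its lowest difference, 0.41, was on the Cugbp1 siRNA array of 0 h. Ngfr, the low-affinity neurotrophin receptor, rose by 0.63, and 2 regulators of Hedgehog signalling, Mosmo and Tulp3, rose by 0.63 and 0.50. Egln3, an oxygen-sensing prolyl hydroxylase, rose by 0.55, and Ptk7, a Wnt co-receptor, by 0.23, the smallest rise among the 53.

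Metabolic enzymes and transporters split, with 9 higher and 5 lower. Acp1 was at 9.78, 9.77 and 9.77 on control arrays, 10.61, 10.82 and 10.96 with Cugbp1 siRNA and 10.52, 10.70 and 10.86 with Mbnl1 siRNA. The pooled difference was 0.97 ± 0.07 (1.96-fold, adjusted p = 0.0101). Acp1 has 4 other probe sets, which differed by 0.71 to 0.95 in the same direction on all 6 pairs. Nmnat2, an enzyme of NAD synthesis that protects axons, was at 9.92, 10.11 and 10.20 on control arrays, 10.73, 10.91 and 10.98 with Cugbp1 siRNA and 10.50, 10.66 and 10.78 with Mbnl1 siRNA. It rose by 0.68 ± 0.08 (adjusted p = 0.0241), less with Mbnl1 siRNA by 0.23 ± 0.03 (adjusted p = 0.0007). Acss2, the cytosolic acetyl-CoA synthetase, rose by 0.52 ± 0.06 (adjusted p = 0.019) and was the only called gene of 36 tested from the cholesterol and fatty acid synthesis list. The lower members included Slc9a8, a sodium-proton exchanger of endomembranes (-0.49), Pde7a, a cAMP phosphodiesterase (-0.43), and Mboat1, a lysophospholipid acyltransferase (-0.39). Also lower were Etfrf1, a regulator of the electron transfer flavoprotein (-0.39), and Cacna2d1, a calcium channel subunit (-0.38). The knockdown mean of Etfrf1 (7.29) lay below the intensity filter. Etfrf1 passed it through its control arrays (mean 7.68).

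Regulators of ubiquitin ligases, RNA-binding genes and genome maintenance genes also split. Dcun1d3, a regulator of cullin neddylation, was at 9.17, 8.86 and 8.64 on control arrays, 9.88, 9.35 and 9.32 with Cugbp1 siRNA and 9.92, 9.43 and 9.30 with Mbnl1 siRNA, a rise of 0.64 ± 0.05 (adjusted p = 0.0101). Dcaf1, a substrate receptor of a cullin ligase, rose by 0.43, while Rnf141 and Anapc15, a subunit of the anaphase-promoting complex, fell by 0.44 and 0.30. Snord16a, a box C/D small nucleolar RNA, was at 9.60, 9.18 and 9.36 on control arrays, 9.93, 9.72 and 10.10 with Cugbp1 siRNA and 10.18, 9.93 and 10.10 with Mbnl1 siRNA, a rise of 0.61 ± 0.08 (adjusted p = 0.033). It was the only called gene among 22 tested small nucleolar and Cajal body RNAs, where 0.953% of all genes were called. Fmr1, a translational repressor, rose by 0.28, and Rbms1, a binder of single-stranded nucleic acid, fell by 0.43. Nanos1, which represses mRNAs with Pumilio proteins, was at 8.09, 8.04 and 8.13 on control arrays, 7.55, 7.60 and 7.56 with Cugbp1 siRNA and 7.53, 7.67 and 7.61 with Mbnl1 siRNA, a fall of 0.50 ± 0.05 (adjusted p = 0.0157). Bard1, the partner of Brca1, fell by 0.49 and Ncapd3, a condensin subunit, by 0.48, while Terc, the telomerase RNA, rose by 0.28.

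Of the lower genes, 5 encode proteins of membrane fusion or lipid anchoring. Stx2, a syntaxin of the plasma membrane, was at 10.33, 10.32 and 10.43 on control arrays, 9.80, 9.72 and 9.81 with Cugbp1 siRNA and 9.59, 9.53 and 9.56 with Mbnl1 siRNA. It fell by 0.69 ± 0.08 (1.62-fold, adjusted p = 0.0222), further with Mbnl1 siRNA by 0.22 ± 0.04 (adjusted p = 0.00189). Zdhhc2, a palmitoyltransferase, was at 10.88, 11.14 and 11.29 on control arrays, 10.29, 10.50 and 10.58 with Cugbp1 siRNA and 10.21, 10.43 and 10.57 with Mbnl1 siRNA. Its fall of 0.67 ± 0.04 had the smallest adjusted p of the 94 (0.00882). Gap43, a palmitoylated growth-cone protein, was at 9.32, 9.54 and 9.40 on control arrays, 8.81, 8.89 and 8.80 with Cugbp1 siRNA and 8.78, 8.90 and 8.98 with Mbnl1 siRNA, a fall of 0.56 ± 0.05 (adjusted p = 0.0166). Myo1c, a membrane-bound myosin, fell by 0.37, and Vamp3, a SNARE of recycling endosomes, by 0.24. The largest fall of all belonged to Itpripl2, a membrane protein related to an interactor of the inositol trisphosphate receptor. It was at 10.21, 10.05 and 9.78 on control arrays, 9.45, 9.32 and 9.08 with Cugbp1 siRNA and 9.42, 9.28 and 8.87 with Mbnl1 siRNA, a fall of 0.78 ± 0.05 (1.72-fold, adjusted p = 0.00955).

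Of the lower genes, 6 encode other immune receptors or signalling proteins, in contrast to Ly96 above. Cd80, a costimulatory ligand of T cells, was at 11.34, 11.42 and 11.41 on control arrays, 10.88, 10.61 and 10.61 with Cugbp1 siRNA and 10.82, 10.82 and 10.84 with Mbnl1 siRNA. It fell by 0.63 ± 0.08 (1.54-fold, adjusted p = 0.0264). Ptpn22, a phosphatase of antigen receptor signalling, fell by 0.54 ± 0.08 (adjusted p = 0.0419), from 8.28, 7.93 and 7.64 to 7.62, 7.39 and 7.23 with Cugbp1 siRNA and 7.86, 7.43 and 6.92 with Mbnl1 siRNA. Rel, an NF-kappaB subunit, was at 9.57, 8.74 and 8.35 on control arrays, 9.20, 8.32 and 8.07 with Cugbp1 siRNA and 9.29, 8.33 and 7.98 with Mbnl1 siRNA. It fell with knockdown by 0.35 ± 0.05 (adjusted p = 0.0283), and the arms were 0.36 and 0.35 below control. Elf4, an ETS factor of leukocytes, fell by 0.51 (a dimmer probe set, at a mean of 7.33 and under the filter, differed by -0.04, with 4 of 6 pairs below control), Ifngr1, the ligand-binding chain of the interferon gamma receptor, by 0.41, and Tmem106a by 0.25. Of the leukocyte markers above, 18 of 20 did not pass the filter.

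Of the lower genes, 6 encode matrix proteins, growth factors or their binders. Timp3, a matrix-bound inhibitor of metalloproteinases, was at 11.68, 11.78 and 11.56 on control arrays, 11.31, 11.28 and 11.05 with Cugbp1 siRNA and 10.99, 10.98 and 10.91 with Mbnl1 siRNA. It fell by 0.59 ± 0.09 (adjusted p = 0.0481), further with Mbnl1 siRNA by 0.25 ± 0.05 (adjusted p = 0.00288). Tnc, the matrix glycoprotein tenascin C, was at 12.09, 12.15 and 12 on control arrays, 11.69, 11.65 and 11.54 with Cugbp1 siRNA and 11.40, 11.50 and 11.35 with Mbnl1 siRNA, a fall of 0.56 ± 0.08 (adjusted p = 0.0361). Col8a1, a short-chain collagen, fell by 0.36, Arsj, a secreted sulfatase, by 0.37, Igfbp2, a binder of insulin-like growth factors, by 0.33, and Pdgfc by 0.30. On the list of 56 tested extracellular matrix and adhesion genes, 2 were called (Tnc and Col8a1, both lower), 7 lay above and 9 below control on all pairs, and the median was -0.01. The background over all genes was 0.953% called, 13.6% above and 13.4% below. Lama2, a laminin chain of muscle basement membrane, stood 0.39 and 0.23 above control (adjusted p = 0.0832), and Col1a1 at -0.18 and -0.45 (adjusted p = 0.182).

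The related small GTPases Rras and Rras2 fell by like amounts. Rras was at 11.91, 12.17 and 12.21 on control arrays, 11.64, 11.83 and 11.86 with Cugbp1 siRNA and 11.53, 11.80 and 11.86 with Mbnl1 siRNA, a fall of 0.34 ± 0.04 (adjusted p = 0.0241). Rras2 was at 11.93, 11.91 and 11.75, then 11.62, 11.59 and 11.44, and 11.55, 11.55 and 11.43, a fall of 0.33 ± 0.04 (adjusted p = 0.0222). Rras rose over 5 h by 0.28 and Rras2 fell by 0.16, so their shared fall with knockdown sat on opposite time courses. The remaining 15 members were put in no group, and 7 of them rose. They include Gm10419, a predicted gene that rose by 0.89 (7.37, 7.46 and 7.60 on control arrays, 8.08, 8.20 and 8.35 with Cugbp1 siRNA, 8.58, 8.48 and 8.48 with Mbnl1 siRNA), Fhl1, a LIM protein of muscle that fell by 0.32, and Baalc, which fell by 0.43.

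Cell cycle genes lay below control on all pairs more often than above it, with no calls in the pooled test. Among all genes, 13.4% lay below and 13.6% above on all pairs. Of all 9864 genes, Cugbp1 siRNA alone called 855 lower and 1039 higher, and Mbnl1 siRNA alone 3054 lower and 2372 higher. Of 51 tested genes of DNA replication and S phase, 0 were called by limma, 25 lay below control on all pairs and 0 above, and the median was -0.22 (-0.05 with Cugbp1 siRNA and -0.39 with Mbnl1 siRNA). Each siRNA alone called 7 of the 51 lower and 2 higher with Cugbp1 siRNA, and 49 lower with Mbnl1 siRNA. Of 55 mitosis and kinetochore genes, 0 were called, 20 lay below on all pairs and 0 above, with a median of -0.31 (-0.04 and -0.57), and each siRNA alone called 2 lower and 2 higher with Cugbp1 siRNA and 54 lower with Mbnl1 siRNA. Plk1, a mitotic kinase, stood at -0.70 and -0.54 (pooled adjusted p = 0.0737), and Cdc6, a licensing factor, at -0.28 and -0.44 (adjusted p = 0.0805). Of 29 tested genes of the nuclear envelope and endoplasmic reticulum membrane, 14 lay below and 1 above control on all pairs, and 0 were called. Erlin2, a scaffold of endoplasmic reticulum degradation, stood at -1.09 ± 0.04 with Cugbp1 siRNA and -0.49 ± 0.04 with Mbnl1 siRNA (adjusted p = 0.118). For the RNA interference and microRNA machinery, 6 of 15 tested genes lay below on all pairs, among them Ago2, the slicing Argonaute, at -0.15 and -0.67 (adjusted p = 0.296) and Dicer1 at -0.11 and -0.90 (adjusted p = 0.394). Of 49 genes of mRNA decay machinery 0 were called, 9 lay below and 4 above, and Dcp2, the decapping enzyme, stood at -0.45 and -0.51 (adjusted p = 0.057), while Xrn1, the cytoplasmic exonuclease, stood at 0.68 and 0.20 (adjusted p = 0.238). Of 32 tested genes of muscle contraction 0 were called, 8 lay above and 2 below, with Tnnc1, cardiac and slow troponin C, at 0.25 and 0.81 (adjusted p = 0.222). The 54 cytosolic ribosomal protein genes had a median of 0.00, with 1 above and 2 below.

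**Figure D3:**
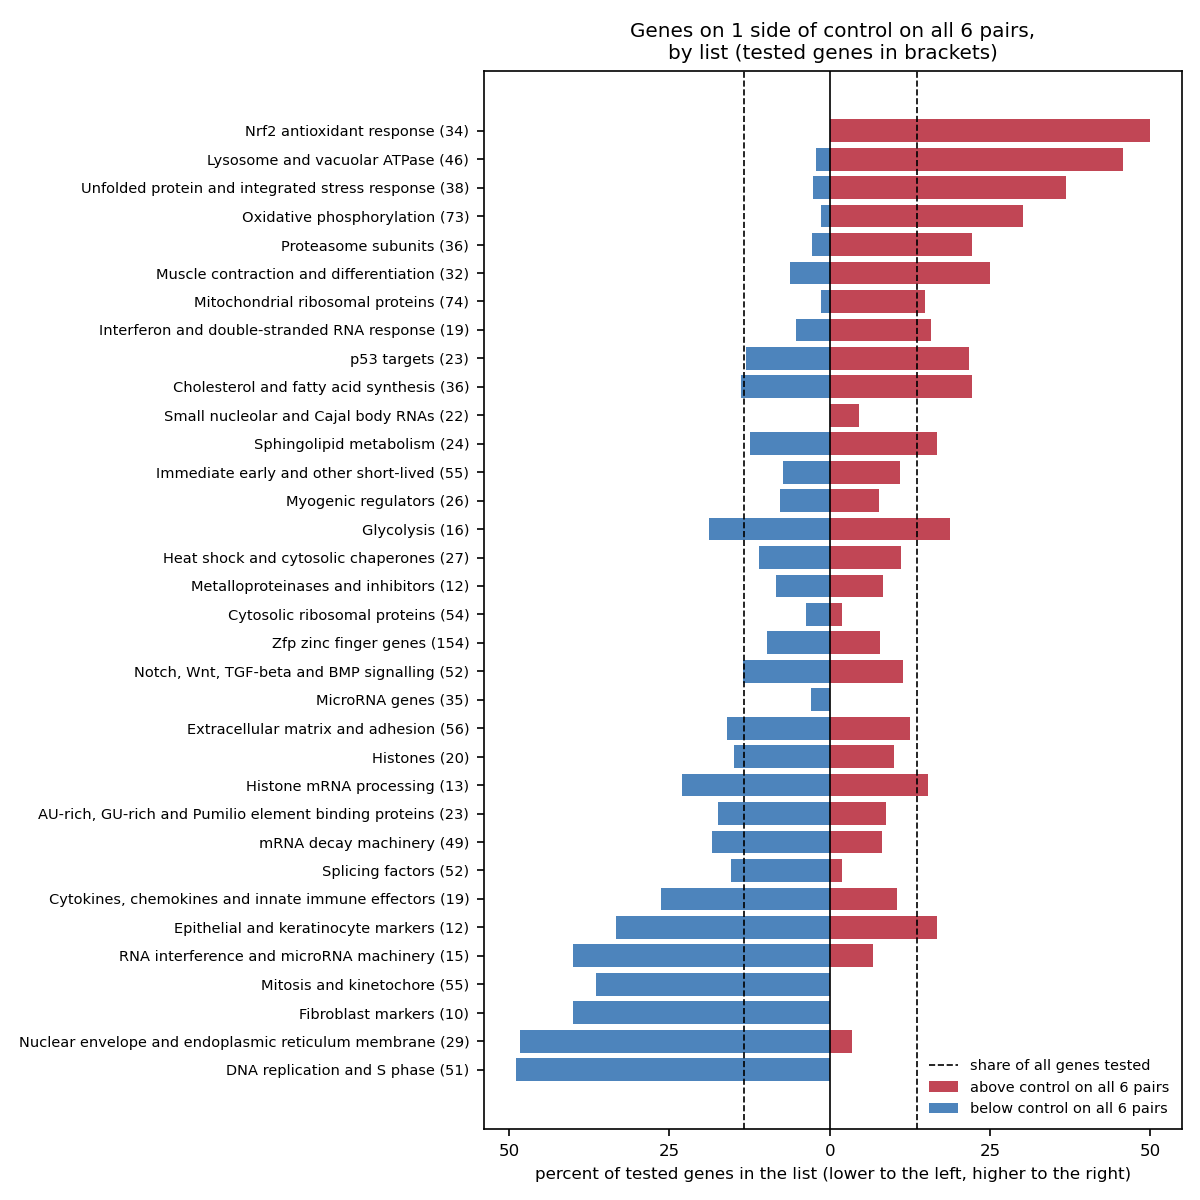
Percent of the tested genes of each list of 10 or more that lay above control (right) or below it (left) on all 6 pairs of knockdown and control arrays, with no test. Dashed lines give the shares of all genes, 13.6% above and 13.4% below. The Nrf2 list has the longest bar to the right (50% of 34 genes) and DNA replication the longest to the left (49% of 51).

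The call leaves out some genes that both siRNAs moved strongly, many but not all of them by unequal amounts. Without a test, 2667 genes (27%) lay on the same side of control on all 6 pairs, 1344 above and 1323 below. Every difference was past 0.25 in 148 genes (1.5%), of which 70 were called, and past 0.5 in 19 (0.193%), of which 13 were called. The other 6 were Prr9, Ly6g, Ptgs2, Hmox1, Slc40a1 and Atp10a. Prr9, a proline-rich protein of the epidermal differentiation region, stood 1.50 ± 0.05 above control with Cugbp1 siRNA and 2.66 ± 0.05 with Mbnl1 siRNA (pooled 2.08, adjusted p = 0.0661). Ly6g, a surface protein known from neutrophils, stood at 1.40 ± 0.12 and 2.86 ± 0.12 (pooled 2.13, adjusted p = 0.102). Ptgs2, the inducible cyclooxygenase, stood at 0.68 and 1.42. Slc40a1, the iron exporter, stood at 0.78 and 0.95 (pooled adjusted p = 0.0529). Its siRNA arms were not called different (0.17 ± 0.15, adjusted p = 0.358). Control means of Prr9 (7.20), Ly6g (7.25) and Slc40a1 (6.97) lay below the intensity filter of 7.385. These genes passed it through their knockdown arrays. Atp10a, a phospholipid flippase, stood at -0.66 ± 0.04 and -1.41 ± 0.04. At the threshold itself, Slc49a4 (0.32), Anapc15 (-0.30), Tmem119 (-0.36) and Bard1 (-0.49) were inside at an adjusted p of 0.0489, and Hmox1 (1.04), Ccnc (0.28), Tlnrd1 (-0.38) and Inhba (-0.44) outside at 0.0502 to 0.0508.

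**Figure D4:**
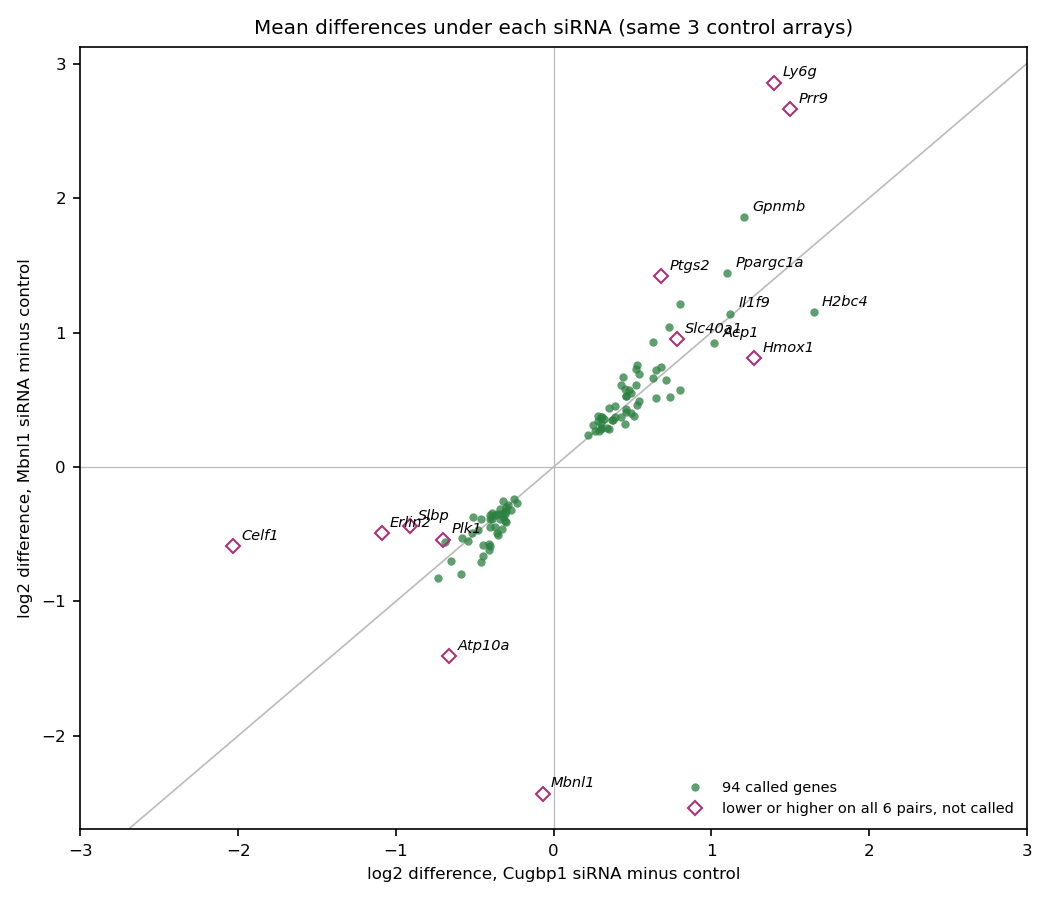
Mean log2 difference from control with Mbnl1 siRNA (vertical) against that with Cugbp1 siRNA (horizontal), over the same 3 control arrays. Green points are the 94 called genes, which lie near the line of equal differences, a closeness that the pooled test favours. Open diamonds are 11 named genes on 1 side of control on all pairs that were not called, such as Ly6g (1.40 and 2.86) and Celf1 (-2.03 and -0.59).

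The siRNAs moved 1544 genes (15.7%) in opposite directions at every time, and the difference between siRNAs was called in 1511 of them. The same arrays chose these genes by opposite signs, so a called difference in most of them follows largely from the choice. The 5 largest by the smaller of their differences were Lbp, Efhd1, Cd55, H2ax and Plscr2. H2ax, the histone variant of DNA damage sites, stood at 0.72 ± 0.11 with Cugbp1 siRNA and -1.19 ± 0.11 with Mbnl1 siRNA, whereas H2bc4 rose with both. Lbp, the endotoxin-binding protein, stood at 1.20 and -0.70, whereas Ly96 of the same pathway rose with both. Efhd1, a mitochondrial calcium-binding protein, stood at -0.74 and 0.85, Cd55, an inhibitor of complement, at -0.73 and 0.70, and Plscr2, a scramblase family member, at -0.70 and 0.79. Within the 94, the siRNAs differed in size in 23 genes (24.5%), 17 of them larger with Mbnl1 siRNA and 6 larger with Cugbp1 siRNA, against 56.4% of all genes. The pooled test favours a small difference between siRNAs, so these shares cannot be compared.

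The change over 5 h of actinomycin D was not used to choose the genes. From 0 to 5 h, 31 of the 94 fell (33%) and 33 rose (35.1%), against 32.8% and 35.6% of all genes, shares close to the background. The largest falls were those of Ddit4 (-1.80), Gadd45a (-1.25) and Rel (-1.22), each with an adjusted p of 2.84e-06 or less. Ppargc1a fell by 0.92 (adjusted p = 0.00141), Elf4 by 0.77 and Dtx4 by 0.75. Among higher genes 18 fell and 18 rose, and among lower genes 13 fell and 15 rose. A fall of more than 0.5 was seen in 14.9% of the 94 and in 15.7% of all genes. A rise here is relative to the other transcripts of the array.

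A change of the shared difference with time in actinomycin D could hardly be tested, since the fit has 4 residual degrees of freedom and counts a difference between the siRNAs as spread. The hourly slope of the pooled difference was called by limma in 0 of 9864 genes (0%), with 101 (1.02%) at an unadjusted p under 0.05. Slopes of the 94 genes ran from -0.063 to 0.072 log2 units per hour, and 1 had an unadjusted p under 0.05. The lowest adjusted p over all genes was 1, which says nothing about stability. The difference grew in size over time in 61 and shrank in 33. The share over all genes was not computed, so no trend can be read from these counts.

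**Figure D5:**
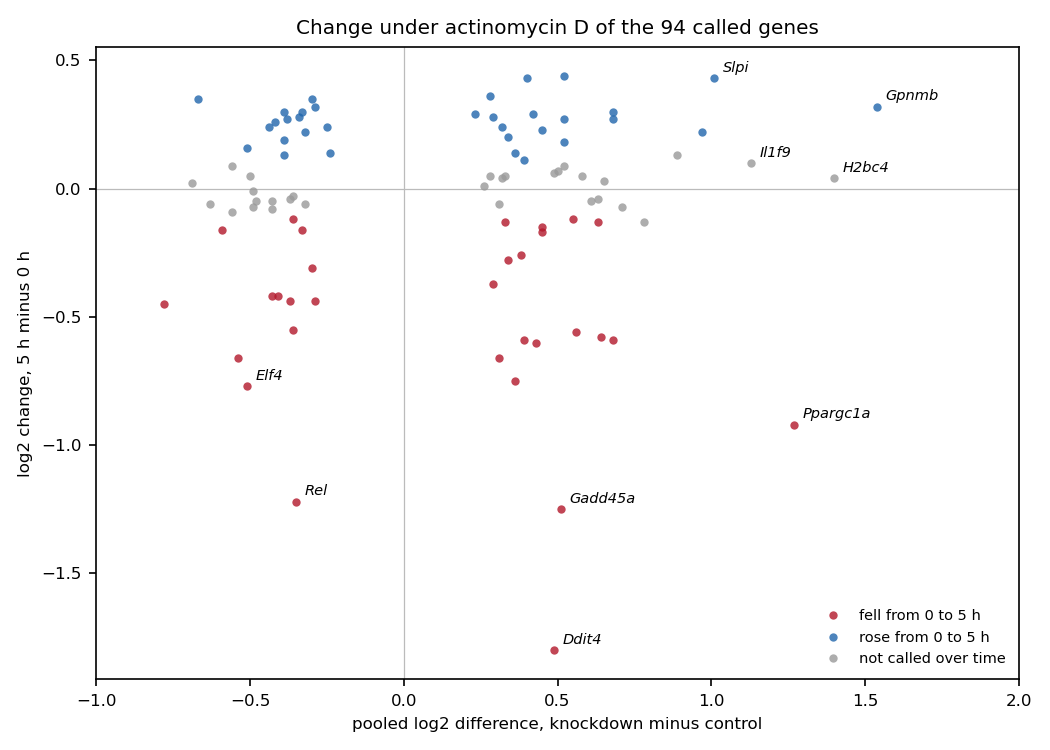
Log2 change from 0 to 5 h (vertical) against the pooled log2 difference between knockdown and control (horizontal) for the 94 genes, coloured by the call over time. Genes that fell lie on both sides of 0, with Ddit4 (-1.80), Gadd45a (-1.25) and Rel (-1.22) lowest.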

How the data were processed

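Total RNA of C2C12 cells was labelled with biotin and hybridised to 9 Affymetrix whole-transcript arrays, per the labels' protocols. The authors' normalization was RMA from Affymetrix Expression Console, per the submitters' processing notes, with no version stated there. Judged by their range, the deposited values are intensity on a linear scale, of which the log2 was used. Their number limits the precision.

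Of 35556 probe sets, 21789 have 1 symbol, 1621 several and 12146 none. Genes (19938) were kept where the mean log2 was at least 7.385, the 50th percentile of named probe sets, which left 9864, each represented by its brightest probe set.

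limma 3.58.1 in R 4.3.3 fitted knockdown (6 arrays against 3) with time as 3 levels (5 residual degrees of freedom), siRNA as 3 levels with time, which gave each siRNA's difference and the change from 0 to 5 h, and knockdown by hours (4 each). P-values were adjusted by Benjamini-Hochberg over all genes of a fit. The pooled fit was tested on simulated data in which both siRNAs had the same effect, unlike in many genes here. The other fits were not tested in this way.

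Genes were named by rule: the 15 highest and 15 lowest called genes by shared difference, the 5 largest pooled differences each way, Celf1, Celf2, Mbnl1, Mbnl2, Mbnl3, Myod1, Myog, Gapdh and Actb, up to 3 called genes of each of 39 lists, the 3 slopes with the smallest p each way, and 5 genes moved in opposite directions. Other genes, and the grouping of the 94 by function, were chosen after their values were seen. The members and lists were chosen with earlier results of these data known, so no list was tested and no p is given over a list alone. Alternatives were another filter, scaling, probe set rule, design and moderation, no time block, and leaving out each array or time. Promoter windows came from RefSeq.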

Additional observations from a re-analysis of the deposited data

Results flagged for a closer look

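Among the 54 named genes, 3 had 1 of their 6 differences far from the other 5 (past the 95% critical value of Dixon's test, as chance alone would give in about 1 in 20 genes). Elf4 was at -0.76 on the Mbnl1 siRNA array of 5 h, with the others between -0.51 and -0.41. Baalc was at -0.53 on the same array, with the others between -0.44 and -0.39. Col8a1 was at -0.21 on the Cugbp1 siRNA array of 5 h, with the others between -0.44 and -0.36.

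In 6 genes named for their hourly slope, both knockdowns lay on one side of control at 0 h and on the other at 5 h. The slopes of the pooled difference were 0.152 for Ifrd1, 0.136 for Yju2 and 0.099 for Daxx, and -0.088 for Fbxo34, -0.085 for Cck and -0.075 for Il20rb, in log2 units per hour. The slope test called none of the 6, at unadjusted p from 0.00203 (Yju2) to 0.0132 (Cck). No other test was made of this difference between times.

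Of 3974 probe sets without a single gene symbol that passed the filter, 4 (0.101%) were called in the pooled test. The probe sets 10342915 and 10428619 were higher by 0.70 and 0.57, and 10483023 and 10340038 were lower by 0.60 and 0.40 (pooled differences -0.60 and -0.40). Each was moved by both siRNAs by similar amounts (0.64 and 0.77, 0.54 and 0.59, -0.59 and -0.60, and -0.39 and -0.41 with Cugbp1 and Mbnl1 siRNA). The pooled test favours such likeness.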

How the results depend on the processing

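The direction of the members is fixed by their choice on all 6 pairs, so that it held in each fit is no sign of stability. The number of calls depended on the setting. With siRNA as 3 levels, 1782 genes were called higher and 2092 lower, 2236 of them on 1 side of control on all pairs, and all 94 members were among the calls. In that fit the differences of the members are unchanged, and the gap between the siRNAs no longer counts as spread. The same arrays chose the members, so their calls there are no separate support. Without the time block 15 and 8 were called (23 in all, 22 of them members), and 2113 genes differed between siRNAs instead of 5563. Without the intensity filter 23 were called lower and 42 higher, with 59 members among them. With the filter at the 75th percentile 54 of 54 tested members were called, on the same values with fewer genes tested. There 1595 genes lay on 1 side and 3173 differed between siRNAs. With equal ribosomal protein medians, which moved the median difference by 0.007, 37 were called higher and 16 lower (53 in all), so that 69.8% of calls were higher, against 56.4%. Leaving out 1 array at a time gave 0 to 28 higher, 0 to 17 lower and 0 to 45 in all. Without the 0 h, 2.5 h or 5 h arrays, 0 genes were called higher, 0 lower and 0 in all, with 919, 715 and 921 at an unadjusted p under 0.05 by limma. These fits have fewer arrays and the cause was not otherwise tested. The slope test called 0 genes in all of its fits. Other probe sets of 12 members numbered 16, and 11 of the 12 that passed the filter agreed in sign on all 6 pairs, with Etv1 the exception (5 of 6). Of the 4 under the filter 3 agreed, and that of Elf4 did not (-0.04, with 4 of 6 of the same sign, against -0.51). The number of arrays and probe sets near background limit what can be called.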

Other observations

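Lists not described above held few calls of the pooled test, which called 0.953% of all genes. On all 6 pairs, 13.6% of all genes lay above control and 13.4% below. Of 23 tested p53 targets 1 was called (Gadd45a, higher), 5 lay above control on all 6 pairs and 3 below, and the median pooled log2 difference was 0.12 (0.04 with Cugbp1 siRNA and 0.19 with Mbnl1 siRNA). Gadd45a was also the only called gene among 55 tested immediate early and other short-lived genes, of which 6 lay above and 4 below. Timp3 was the only one called among 12 metalloproteinases and their inhibitors, whose median was -0.19 with Cugbp1 siRNA and 0.24 with Mbnl1 siRNA. Fmr1 was the only one among 23 binders of AU-rich, GU-rich and Pumilio elements, of which 2 lay above and 4 below.

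No gene of the following lists was called in the pooled test. Of 74 tested mitochondrial ribosomal protein genes 11 (14.9%) lay above control on all pairs and 1 below, with a median of 0.04, and each siRNA alone called 8 higher and 1 lower with Cugbp1 siRNA and 15 higher and 18 lower with Mbnl1 siRNA. Of 36 proteasome subunits 8 lay above and 1 below, with a median of 0.03. Of 52 splicing factors 1 lay above and 8 below, with a median of 0.02 with Cugbp1 siRNA and -0.14 with Mbnl1 siRNA. Of 26 myogenic regulators 2 lay above and 2 below, of 27 heat shock and chaperone genes 3 and 3, of 16 glycolytic genes 3 and 3, of 24 sphingolipid genes 4 and 3, of 13 genes of histone mRNA processing 2 and 3, of 154 Zfp zinc finger genes 12 and 15, of 35 microRNA genes 0 and 1, and of 5 Ly6 surface protein genes 1 and 1. Among all genes, 13.6% lay above and 13.4% below on all pairs. Of all 9864 genes, Cugbp1 siRNA alone called 1039 higher and 855 lower, and Mbnl1 siRNA alone 2372 higher and 3054 lower.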
